A study of Mus musculus with 4 samples.

Results

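The 8 genes described here encode transcription factors that direct bone marrow cells towards neutrophils and monocytes: Spi1, Cebpa, Cebpg, Cebpe, Gfi1, Cebpd, Cebpb and Klf4. They were picked by symbol, and all 8 were found among the 31053 genes of the count files. Mononuclear cells were separated on Ficoll from the marrow of femurs and tibias, and single-cell libraries were made from the 5′ ends of their transcripts, with 1 library per mouse. The groups were 2 TLR9-/- mice, which carry a disrupted TLR9 allele in every cell of the body, and 2 wild-type (WT) mice. All 4 were C57BL6/J mice on normal chow, and the genotypes were bred in separate cages. No other allele or agent is named for these libraries, and the age and sex of the sequenced mice are not given in the sources used here. For its osteoclast assay the study kept marrow cells overnight with the growth factor M-CSF before the Ficoll step. Its methods for single-cell sequencing do not say whether this was done for these libraries. The study ran 2 experiments, each with 1 mouse of either genotype, and it is not stated whether the numbers 1 and 2 in the library names mark them.

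PU.1, the product of Spi1, and the C/EBP family bind enhancers of most myeloid genes, and the balance between them, Gfi1 and Klf4 is known to set which branch a progenitor takes. C/EBPα opens the granulocyte and monocyte programme in multipotent progenitors, C/EBPε and Gfi1 belong to the granulocyte branch, and Klf4 belongs to the monocyte branch downstream of PU.1. C/EBPβ and C/EBPδ are best known for their induction by cytokines and for mature myeloid cells, and C/EBPγ lacks an activation domain and acts as a dimer partner of the others.

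After filtering, 39167 cells of 40545 remained (8895 to 10781 per library), and a cell held a median of 2545 and 3618 unique molecular identifiers (UMIs, counted molecules) in the TLR9-/- mice against 1759 and 2287 in the WT mice. Among the remaining cells, 797 different barcodes were present in more than 1 library. As a check of the labels, the 2 TLR9-/- mice had 41 and 48 UMIs of Tlr9 and the 2 WT mice 120 and 97. Cells were placed in 10 gates with marker genes other than the 8 factors, and 11000 cells entered a gate. The gates held 132 stem-like cells (Hlf, Mecom, Procr), 156 granulocyte-monocyte progenitor (GMP)-like cells (Mpo with Kit or Cd34) and 701 granulocyte progenitors (Elane, Prtn3, Fcnb). There were 2456 immature neutrophils (the secondary granule genes Camp, Ngp, Ltf) and 1804 intermediate neutrophils (the same genes with Retnlg). The 1589 mature neutrophils had Retnlg, with Camp, Ngp and Ltf together under 50 per 10000 UMIs. The monocyte branch held 805 monocyte progenitors (Mpo and Ms4a3 with F13a1 or Ccr2), 1560 cycling monocytes, 1733 classical monocytes (Ly6c2, F13a1, Ccr2) and 64 nonclassical monocytes (Ace, Treml4). The nonclassical gate also contained MHC class II transcripts, with Cd74 at 5423 to 7907 CPM (the UMIs of a gene scaled to a fixed total per gate and library, here without TMM scaling), so its name rests on the gate genes alone. Monocyte progenitors made up 3.52% and 3.03% of the TLR9-/- cells and 0.823% and 0.764% of the WT cells, a log2 difference of 2.04 (SE 0.13, adjusted p = 0.0025). The share of cells was also higher in TLR9-/- mice for granulocyte progenitors, by 1.29 (SE 0.21, adjusted p = 0.0172), for GMP-like cells, by 1.27 (SE 0.15, adjusted p = 0.00896), for cycling monocytes, by 1.01 (SE 0.18, adjusted p = 0.0172), and for classical monocytes, by 1.02 (SE 0.26, adjusted p = 0.0457), in edgeR's quasi-likelihood test over the 10 gates. The call for classical monocytes was lost under each of 7 alternatives, that for cycling monocytes without any 1 of the 4 libraries, and that for GMP-like cells without TLR9-/- 1 or TLR9-/- 2. The gates require minimum numbers of marker UMIs and the TLR9-/- libraries were the deeper ones, and the part of depth in these shares was not tested.

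The cells that remained after filtering held 42859 UMIs of Spi1, 33902 of Cebpb, 29436 of Cebpd, 17282 of Cebpe, 7604 of Klf4, 6807 of Cebpg, 5811 of Cebpa and 2947 of Gfi1. The 10 gates account for 37.9% of the Cebpg UMIs and for 53.2% (Gfi1) to 73.6% (Cebpe) of those of the other members. On the GRCm38 build, Cebpa lies at chr7:35119293-35121928 and Cebpg at chr7:35046422-35056573, so that they are neighbours on one chromosome. Cebpb is a gene of 1 exon at chr2:167688915-167690418, and Spi1 lies on the same chromosome at chr2:91082390-91115756. Cebpd is at chr16:15887286-15891031, Cebpe at chr14:54710360-54712174, Gfi1 at chr5:107716657-107726036 and Klf4 at chr4:55527143-55532466. Cebpa, Cebpb, Cebpd and Cebpg each overlap a counted gene on the other strand (Gm45091, Tmem189, Spidr and Gm45095), and the strand setting of the counting is not given in the sources used here, so reads of these pairs may not be fully separated.

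Promoter sequences of 3 members are shown: Klf4 and Cebpb, which were higher in monocyte than in granulocyte progenitors in the values given further on, Cebpb also because it differed between libraries of 1 genotype, and Cebpa, which did not pass between the branches, for comparison. They are the 250 bases before the start of the gene from RefSeq on GRCm38.p6, written 5′ to 3′ on the strand of the gene, at chr7:35119043-35119292 for Cebpa, chr2:167688665-167688914 for Cebpb and chr4:55532476-55532725 for Klf4. Capitals mark exact matches on either strand. The letters searched were TTGCNNAA for the C/EBP family, GAGGAA for PU.1 and its relatives, CACCC for Krüppel-like factors, TGACG for factors of the CREB family, and TATAAA for the box at which the core transcription machinery binds.
Cebpa: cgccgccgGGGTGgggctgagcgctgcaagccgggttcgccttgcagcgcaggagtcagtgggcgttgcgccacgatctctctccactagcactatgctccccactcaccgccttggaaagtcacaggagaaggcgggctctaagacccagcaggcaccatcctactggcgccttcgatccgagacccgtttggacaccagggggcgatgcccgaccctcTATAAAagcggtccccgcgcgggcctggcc
Cebpb: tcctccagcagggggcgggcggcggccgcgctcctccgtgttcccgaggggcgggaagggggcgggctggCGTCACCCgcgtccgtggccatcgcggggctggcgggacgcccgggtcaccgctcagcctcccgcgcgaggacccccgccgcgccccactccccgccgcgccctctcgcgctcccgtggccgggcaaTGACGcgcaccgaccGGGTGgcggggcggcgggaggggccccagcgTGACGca
Klf4: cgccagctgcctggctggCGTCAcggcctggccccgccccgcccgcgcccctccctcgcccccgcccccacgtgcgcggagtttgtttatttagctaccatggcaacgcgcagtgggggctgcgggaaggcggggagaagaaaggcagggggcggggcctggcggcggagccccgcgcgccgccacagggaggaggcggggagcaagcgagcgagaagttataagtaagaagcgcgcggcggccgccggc
The Cebpb window held TGACG 3 times, at positions -180 (reverse strand), -53 and -7 relative to the start, and the match at -180 overlaps a CACCC match at -177. It also held CACCC on the reverse strand at -38. The Klf4 window held TGACG once, on the reverse strand at -232, and the Cebpa window held TATAAA at -30 and CACCC on the reverse strand at -242. Of 32851 mouse promoters of the same length, 17.8% held TGACG, 52.0% CACCC, 12.4% TATAAA, 23.3% GAGGAA and 9.56% TTGCNNAA. None of the 3 windows held TTGCNNAA or GAGGAA, which says only that these letters are missing there. A window before Gfi1, whose sequence is not shown, held TTGCNNAA at -143.

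Levels are given as CPM of the summed UMIs of a gate after TMM scaling over the 40 sums of gate and library, with values in the order TLR9-/- 1, TLR9-/- 2, WT 1 and WT 2. Neighbouring gates were compared with edgeR's quasi-likelihood test with the library as a block, and p-values were adjusted by the Benjamini-Hochberg method over all 9314 genes tested. Of the 80 pairs of member and contrast, 47 passed (34 higher in the later gate or in monocyte progenitors, 13 lower). The background differed widely between contrasts: 7.71% of all genes passed between GMP-like and stem-like cells (3 of the 8 members), 17.8% between granulocyte progenitors and GMP-like cells (5 members), 70.4% at the step to immature neutrophils (7 members), 54.4% at the step to intermediate neutrophils (5 members) and 25.0% at the step to mature neutrophils (6 members). On the monocyte side it was 17.3% between monocyte progenitors and GMP-like cells (5 members), 55.4% between cycling monocytes and monocyte progenitors (6 members), 35.7% between classical and cycling monocytes (3 members) and 16.3% between nonclassical and classical monocytes (2 members). At the steps to immature neutrophils, to intermediate neutrophils and to cycling monocytes most genes passed, so a member's call there says little beside its size. At the first 2 of these steps the size also depended on the scaling. Library totals in place of TMM moved the differences of the members other than Klf4 and Gfi1 by a median of -0.65 and -0.30. The median log2 difference of all genes was near 0, except for 0.11 at classical monocytes, -0.11 at mature neutrophils and -0.95 at nonclassical monocytes. Without the library as a block, 35 pairs passed, and with doubled marker minimums none of the 3 calls between GMP-like and stem-like cells did (adjusted p = 0.0933, 0.346 and 0.551 for Cebpa, Cebpd and Cebpe).

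**Figure D1:**
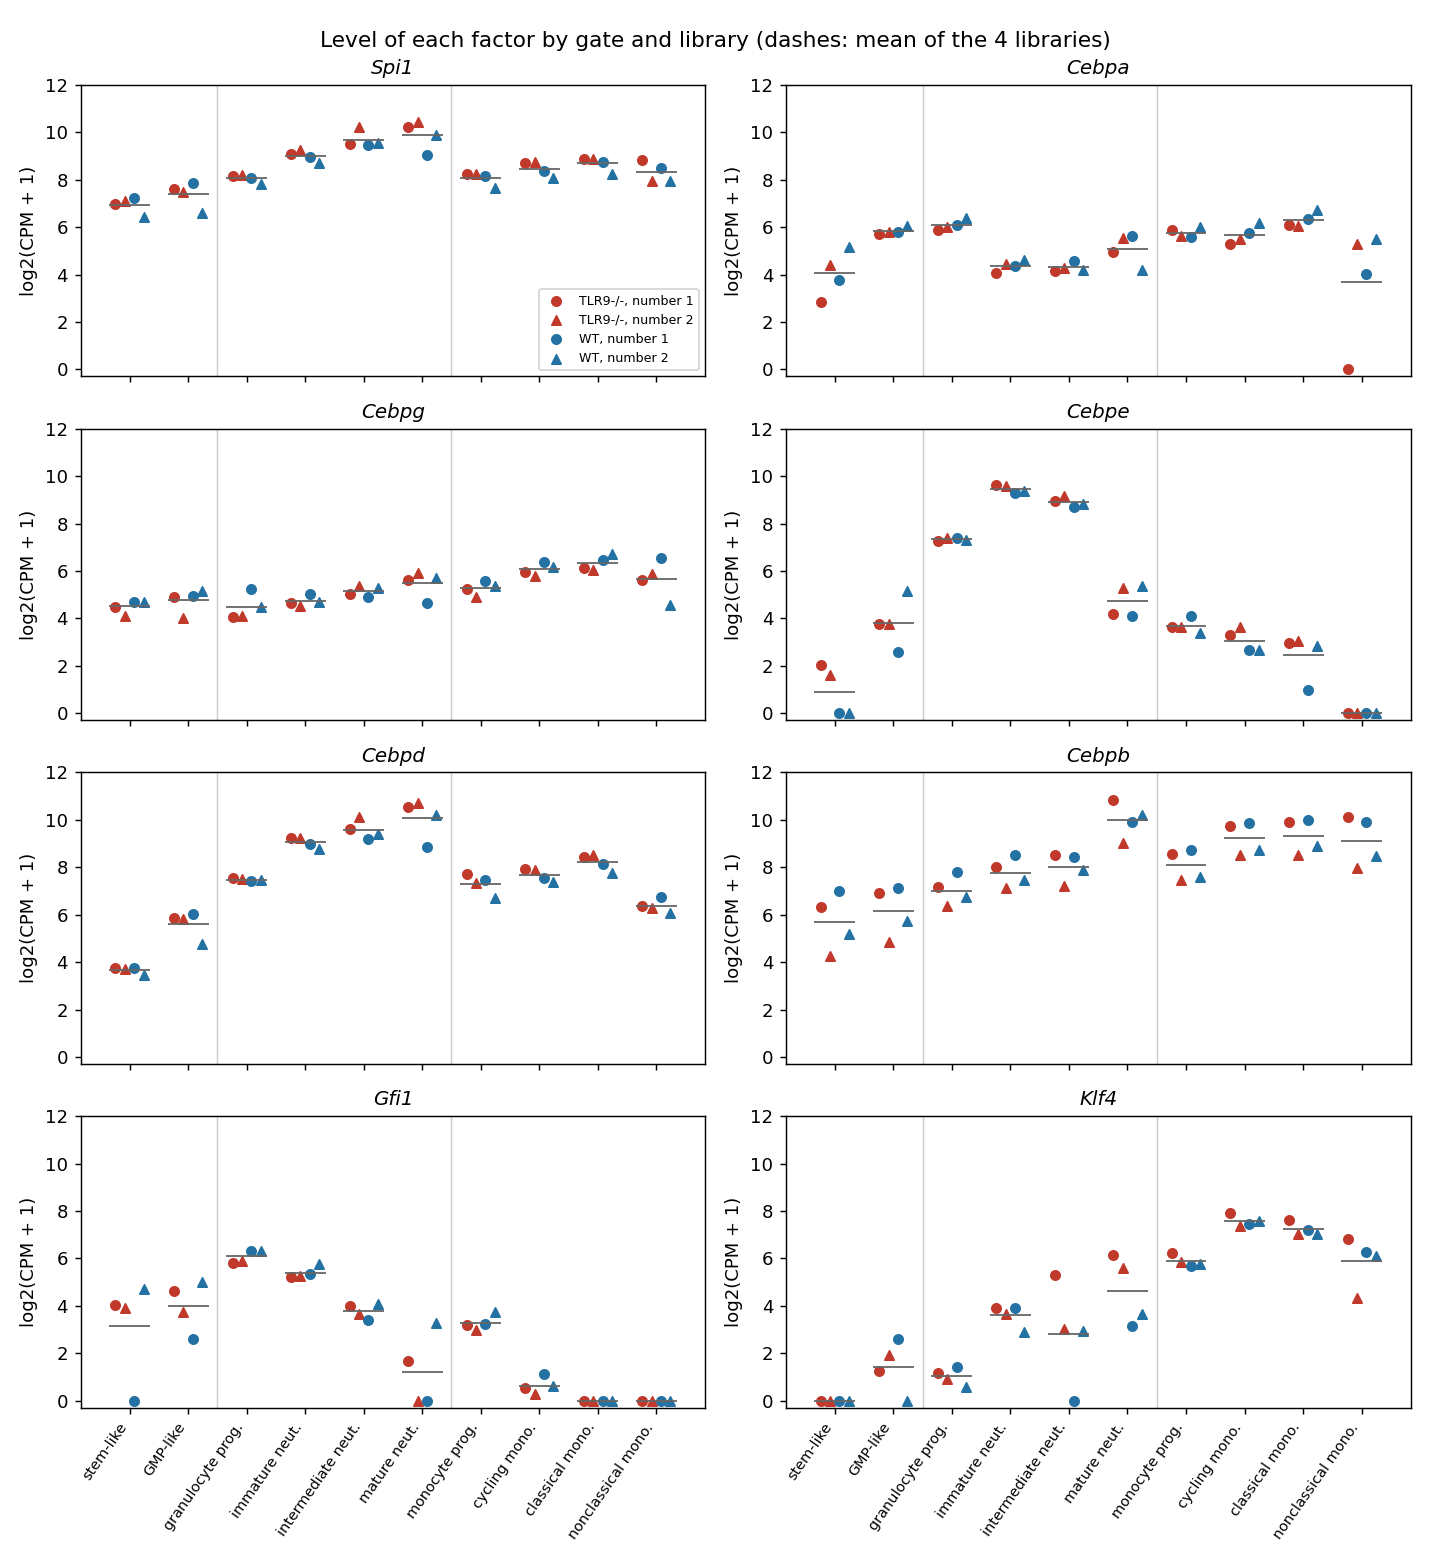
Levels of the 8 factors, 1 panel per gene, as log2(CPM + 1) in 10 gates ordered from stem-like cells through the neutrophil branch to the monocyte branch. Points are the 4 libraries and dashes their mean on that scale. Cebpe peaks at a mean of 709 CPM in immature neutrophils, Gfi1 at 67.9 CPM in granulocyte progenitors and Klf4 at 192 CPM in cycling monocytes, while Spi1 is present in all 10 gates.

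Spi1 was already present in stem-like cells and increased along the neutrophil branch. It stood at 123, 135, 151 and 85.2 CPM in stem-like cells, at 285, 297, 268 and 223 CPM in granulocyte progenitors and at 1196, 1385, 528 and 952 CPM in mature neutrophils. All 4 libraries were higher in granulocyte progenitors than in stem-like cells, while the 4 mature neutrophil values overlapped the 722, 1211, 705 and 739.7 CPM of intermediate neutrophils. The steps that passed were from GMP-like cells to granulocyte progenitors (log2 difference 0.64, SE 0.17, adjusted p = 0.00325), on to immature neutrophils (0.94, SE 0.14, adjusted p = 1.73e-08) and on to intermediate neutrophils (0.72, SE 0.14, adjusted p = 1.08e-05). Over the alternatives the difference at immature neutrophils ran from 0.29 to 1.06. In the monocyte branch Spi1 rose by 0.65 from GMP-like cells to monocyte progenitors (SE 0.17, adjusted p = 0.00285) and by 0.40 from there to cycling monocytes (SE 0.14, adjusted p = 0.011). The last of these was not called without TLR9-/- 1 (adjusted p = 0.061), without TLR9-/- 2 (adjusted p = 0.0814) or with doubled marker minimums (0.21, adjusted p = 0.176). The calls at granulocyte and monocyte progenitors and at cycling monocytes also needed the library as a block, without which their adjusted p-values were 0.106, 0.0907 and 0.148.

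Cebpa had overlapping levels in GMP-like cells, both progenitor branches and cycling monocytes. Classical monocytes overlapped these gates except monocyte progenitors, above which every classical monocyte library lay. Its level was 58.7, 62.5, 67.0 and 81.9 CPM in granulocyte progenitors, 57.5, 48.2, 47.1 and 63.1 CPM in monocyte progenitors and 66.7, 65.4, 79.2 and 103 CPM in classical monocytes. GMP-like cells lay in the same range, at 51.3 to 65.8 CPM, and stem-like cells below it in every library, at 6.17 to 35.1 CPM. Cebpa rose from stem-like to GMP-like cells by 1.61 on the log2 scale (SE 0.34, adjusted p = 0.000897), and fell by 1.73 from granulocyte progenitors to immature neutrophils (SE 0.13, adjusted p = 6.80e-18), where it stood at 15.9, 21.1, 19.3 and 23.3 CPM. From cycling to classical monocytes it rose by 0.62 (SE 0.12, adjusted p = 3.20e-05), with overlapping libraries (37.9 to 71.4 CPM in cycling monocytes). A rise of 0.88 from intermediate to mature neutrophils (SE 0.32, adjusted p = 0.0373) was not called without TLR9-/- 1, TLR9-/- 2 or WT 1, nor without marked doublets (0.81, adjusted p = 0.0937). A decrease of 1.77 from classical to nonclassical monocytes (log2 difference -1.77, SE 0.55, adjusted p = 0.0187) was not called without TLR9-/- 1 or WT 1 or under DESeq2's size factors (-0.92, adjusted p = 0.586), and the nonclassical values ran from 0 to 44.8 CPM in 10 to 22 cells per library.

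Cebpg passed at 3 of 10 contrasts, the fewest of the 8 members. It ranged from 15.9, 16.2, 37.2 and 21.5 CPM in granulocyte progenitors over 37.0, 29.2, 47.1 and 40.5 CPM in monocyte progenitors to 61.0, 53.5, 82.1 and 70.3 CPM in cycling monocytes. Each cycling monocyte library lay above each monocyte progenitor library, with a log2 difference of 0.79 (SE 0.11, adjusted p = 3.23e-08). In classical monocytes it stood at 69.3, 64.6, 87.9 and 105 CPM, which overlapped the cycling monocytes. A rise of 0.60 from immature to intermediate neutrophils (SE 0.19, adjusted p = 0.00661) was not called without TLR9-/- 2 (0.37, adjusted p = 0.248), with library totals in place of TMM (0.26, adjusted p = 0.203) or without the filter on low counts (0.45, adjusted p = 0.0759).

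Cebpe, the C/EBP factor needed for secondary granule proteins, was high in a short window of the neutrophil branch. It was at 0 to 3.08 CPM in stem-like cells, at 12.5, 12.5, 5.0 and 35.1 CPM in GMP-like cells and at 154, 167, 166 and 159 CPM in granulocyte progenitors. Immature neutrophils held 798, 756, 624 and 658 CPM, intermediate neutrophils 490.5, 578, 411 and 457 CPM and mature neutrophils 17.3, 38.3, 16 and 40.1 CPM. These 4 gates did not overlap each other, with immature neutrophils highest, then intermediate neutrophils, granulocyte progenitors and mature neutrophils in every library. The log2 difference was 3.50 from GMP-like cells to granulocyte progenitors (SE 0.25, adjusted p = 2.82e-17), 2.14 on to immature neutrophils (SE 0.12, adjusted p = 7.10e-23), -0.55 on to intermediate neutrophils (SE 0.12, adjusted p = 0.000101) and -4.07 on to mature neutrophils (SE 0.21, adjusted p = 5.13e-23). The step from stem-like to GMP-like cells (2.96, SE 0.85, adjusted p = 0.0185) rested on few UMIs and was not called without TLR9-/- 1 (adjusted p = 0.0638), TLR9-/- 2 (adjusted p = 0.103) or WT 2 (adjusted p = 0.134). In the monocyte branch Cebpe stood at 9.42 to 16 CPM in monocyte progenitors and at 0.966 to 7.27 CPM in classical monocytes, and no UMI was found in the 64 nonclassical monocytes, where 3 counts over the gate would be 13.3 CPM.

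Gfi1, a zinc finger repressor that restrains monocyte genes in granulocyte precursors, peaked earlier than Cebpe. Granulocyte progenitors held 55.2, 58.2, 79.4 and 78.8 CPM, immature neutrophils 35.8, 37.0, 39.4 and 53.2 CPM and intermediate neutrophils 14.9, 11.5, 9.70 and 15.9 CPM. Each of these gates lay apart from the next in all 4 libraries. The rise from GMP-like cells to granulocyte progenitors was 1.77 (SE 0.22, adjusted p = 1.14e-08), and Gfi1 then fell by 0.68 (SE 0.11, adjusted p = 3.69e-07) and by 1.65 (SE 0.23, adjusted p = 1.84e-08) at the next steps. Over the alternatives the log2 difference at immature neutrophils ran from -1.32 to -0.66. Mature neutrophils had 4 Gfi1 UMIs in all, and the decrease from intermediate to mature neutrophils (-2.11, SE 0.63, adjusted p = 0.0087) was not called without TLR9-/- 1, without TLR9-/- 2 or with doubled marker minimums (-1.54, adjusted p = 0.123). On the monocyte side Gfi1 stood at 8.05, 6.94, 8.47 and 12.3 CPM in monocyte progenitors, lower than in GMP-like cells by 1.15 (log2 difference -1.15, SE 0.31, adjusted p = 0.00533), although the libraries of the 2 gates overlapped and the call was lost without TLR9-/- 1 (-0.85, adjusted p = 0.234). Cycling monocytes held 6 Gfi1 UMIs in 1560 cells, a log2 difference of -3.91 from monocyte progenitors (SE 0.39, adjusted p = 1.56e-12). The 1733 classical monocytes held none, where 3 counts over the gate would be 0.45 CPM.

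Cebpd, a family member known for its induction in maturing neutrophils and in inflammation, passed at 9 of 10 contrasts, more than any other member. It stood at 12.3, 12.1, 12.5 and 10.0 CPM in stem-like cells and at 185, 179, 172 and 173 CPM in granulocyte progenitors, where it differed little between libraries. The stem-like values rest on 13 UMIs over all libraries, too few to compare the libraries. Immature neutrophils held 600.1, 610.2, 502 and 440.1 CPM and mature neutrophils 1500.3, 1663, 464 and 1172 CPM, where WT 1 was far below the other libraries. The successive log2 differences along the neutrophil branch were 2.16 (SE 0.47, adjusted p = 0.00138), 1.84 (SE 0.22, adjusted p = 1.69e-09), 1.60 (SE 0.15, adjusted p = 2.32e-14), 0.55 (SE 0.15, adjusted p = 0.00106) and 0.63 (SE 0.15, adjusted p = 0.000965). With library totals in place of TMM, the step to intermediate neutrophils was not called (0.26, adjusted p = 0.0574), nor was the step to mature neutrophils without the library as a block (0.62, adjusted p = 0.0506). In the monocyte branch Cebpd was 207, 160.0, 173 and 102 CPM in monocyte progenitors and 345, 363, 278 and 218 CPM in classical monocytes, without overlap. It rose by 1.69 from GMP-like cells to monocyte progenitors (SE 0.23, adjusted p = 3.08e-08), by 0.37 to cycling monocytes (SE 0.15, adjusted p = 0.035) and by 0.54 to classical monocytes (SE 0.15, adjusted p = 0.00315). The change at cycling monocytes was not called without TLR9-/- 1, TLR9-/- 2 or WT 2, and that at classical monocytes was 0.40 with doubled marker minimums (adjusted p = 0.0534) and 0.54 without the library as a block (adjusted p = 0.0834). Nonclassical monocytes held 67.2 to 106 CPM, below every classical monocyte library (-1.84, SE 0.37, adjusted p = 0.000143), but under DESeq2's size factors this difference was -1.0 with an adjusted p of 0.145.

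Cebpb, the family member of emergency granulopoiesis and of monocyte survival, was higher in mature than in intermediate neutrophils in every library. Intermediate neutrophils held 367, 149, 343 and 235 CPM and mature neutrophils 1842, 513, 959 and 1178 CPM, a log2 difference of 2.07 (SE 0.17, adjusted p = 6.09e-16) without overlap. Classical monocytes held 957, 370.3, 1029 and 479.7 CPM, and they overlapped the cycling monocytes (847, 368, 938 and 425 CPM). With the library as a block, Cebpb rose from GMP-like cells to granulocyte progenitors by 0.79 (SE 0.21, adjusted p = 0.00441), to immature neutrophils by 0.77 (SE 0.15, adjusted p = 1.28e-05), from GMP-like cells to monocyte progenitors by 1.87 (SE 0.20, adjusted p = 9.79e-11) and to cycling monocytes by 1.13 (SE 0.15, adjusted p = 2.35e-09). Without that block the first of these steps had an adjusted p of 0.396 and the next 0.112. The first was also not called without TLR9-/- 2 (0.58, adjusted p = 0.117), and the step to immature neutrophils was 0.12 with library totals in place of TMM (adjusted p = 0.464).

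Klf4, a Krüppel-like factor of monocyte differentiation, was nearly absent before the branches part. No Klf4 UMI was found in stem-like cells, where 3 counts over the gate would be 2.73 CPM, and GMP-like cells held 4 UMIs. Monocyte progenitors held 74.3, 56.6, 50.8 and 52.8 CPM, cycling monocytes 238, 166, 172 and 192 CPM and classical monocytes 199, 131, 146 and 130.3 CPM. Each cycling monocyte library lay above each monocyte progenitor library, whereas the cycling and classical gates overlapped. The log2 difference was 4.82 from GMP-like cells to monocyte progenitors (SE 0.48, adjusted p = 5.91e-12), 1.70 on to cycling monocytes (SE 0.13, adjusted p = 5.12e-17) and -0.35 on to classical monocytes (SE 0.12, adjusted p = 0.0195). The last of these was not called without TLR9-/- 2 (-0.34, adjusted p = 0.0539), without WT 2 (-0.28, adjusted p = 0.113) or without the library as a block (-0.34, adjusted p = 0.358).

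Klf4 was also counted in the neutrophil gates, mostly in cells that held monocyte transcripts. It passed from granulocyte progenitors to immature neutrophils (3.37, SE 0.39, adjusted p = 3.19e-11) and from intermediate to mature neutrophils (1.73, SE 0.40, adjusted p = 0.000526), the last not called without TLR9-/- 2 (1.25, adjusted p = 0.0542) or with doubled marker minimums (1.29, adjusted p = 0.0514). Of the 2456 immature neutrophils, 2119 had no UMI of F13a1, Ccr2, Ms4a6c, Ly86 or Csf1r, and these cells held 77.8% of the UMIs of the gate but 4 of its 131 Klf4 UMIs (3.05%). The corresponding cells held 2 of 31 Klf4 UMIs in intermediate neutrophils and 2 of 57 in mature neutrophils (3.51%). The same cells kept 83.0%, 91.1% and 87.5% of the Cebpe UMIs of the 3 gates and 78.0%, 91.1% and 84.0% of the Spi1 UMIs. In neutrophils without a monocyte marker UMI, a choice made after the data were seen, the log2 difference of Klf4 between immature neutrophils and granulocyte progenitors was -1.01 (adjusted p = 0.185), and that between mature and intermediate neutrophils 0.95 (adjusted p = 0.642). The summed level of these 5 markers, without TMM scaling, was 86.1 to 181 CPM in immature neutrophils, 46.1 to 322 CPM in intermediate neutrophils and 171 to 569.9 CPM in mature neutrophils, with all 5 above 0 in each gate. When the cells with a monocyte marker UMI were left out, 54.0% of the Cebpa UMIs remained in immature and 75.5% in intermediate neutrophils. Of the Cebpb UMIs, 66.7% and 74.7% remained.

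The branches were compared directly between monocyte and granulocyte progenitors, 2 gates that share Mpo. Of the 8 members, 5 passed, against 30.1% of all genes: Klf4, Cebpb and Cebpg were higher in monocyte progenitors, and Gfi1 and Cebpe lower. Klf4 had 443, 359, 54 and 56 UMIs in monocyte progenitors and 5, 6, 2 and 1 in granulocyte progenitors, so the gates did not overlap in CPM, and the log2 difference was 5.78 (SE 0.28, adjusted p = 7.92e-25). For Cebpe the CPM in monocyte progenitors was 11.4, 11.3, 16 and 9.42, far below the 154 to 167 CPM of granulocyte progenitors, with a log2 difference of -3.83 (SE 0.17, adjusted p = 1.42e-26). Gfi1 differed by -2.92 (SE 0.15, adjusted p = 1.50e-23), again without overlap. Cebpb stood at 374, 176, 421 and 193 CPM in monocyte progenitors and at 145, 81.4, 220.1 and 106 CPM in granulocyte progenitors. The 2 gates overlapped for Cebpb, but within each library monocyte progenitors were higher, and the log2 difference was 1.08 (SE 0.15, adjusted p = 4.23e-08), not called without the library as a block (1.09, adjusted p = 0.0679). Cebpg was likewise higher in monocyte progenitors within each library, by 0.88 (SE 0.14, adjusted p = 3.92e-07). Spi1 differed by 0.012 (SE 0.14, 95% interval -0.27 to 0.29, adjusted p = 0.969) and Cebpd by -0.15 (SE 0.15, 95% interval -0.46 to 0.15, adjusted p = 0.501). Cebpa differed by -0.26 (SE 0.11, 95% interval -0.48 to -0.04, adjusted p = 0.0703), and it passed under DESeq2's size factors (-0.31, adjusted p = 0.0245) and without TLR9-/- 1 (-0.40, adjusted p = 0.0222).

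**Figure D2:**
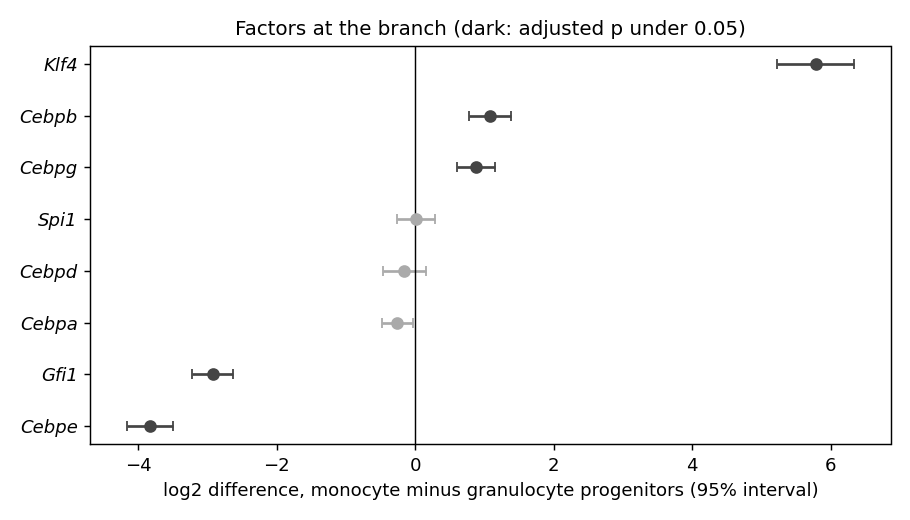
Log2 difference of each factor between monocyte and granulocyte progenitors (x axis, positive values higher in monocyte progenitors) with its 95% interval from the fit over 4 libraries. Dark points passed the threshold: Klf4 (5.78), Cebpb (1.08) and Cebpg (0.88) lie to the right, Gfi1 (-2.92) and Cebpe (-3.83) to the left, and the intervals of Spi1 and Cebpd include 0.

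Other transcription factors of the myeloid network, listed as partners of the 8, split between the branches in the same fit. Of 28 listed, 24 were tested, 10 were higher in monocyte progenitors and 2 lower, at a contrast where 30.1% of all genes passed. Their median log2 difference was 0.42 against -0.01 over all genes. The largest were Irf8, the partner of PU.1 in monocyte and dendritic cell fate (3.67), the retinoic acid receptor gene Rara (3.66), Klf2 (2.69) and Klf6 (2.05), and the 2 lower ones were Myb, a factor of immature progenitors (-1.29), and Stat3, which acts downstream of the G-CSF receptor (-0.46). Of 20 receptor and myeloid genes that need C/EBP factors or PU.1, 9 were higher and 5 lower, with a median of 0.35. The higher ones included Ctss, a lysosomal protease (4.23), the Fc receptor gene Fcgr1 (3.95), the M-CSF receptor gene Csf1r (3.10) and the lysozyme gene Lyz2 (2.70). Lower were S100a9 (-6.03), S100a8 (-5.24), the integrin gene Itgam (-1.17) and the G-CSF receptor gene Csf3r (-0.91). All 7 primary granule genes tested were lower, with a median of -1.51, but 5 of them (Elane, Fcnb, Mpo, Ms4a3 and Prtn3) define gates, and the other two were Cst7 (-1.54) and Ctsg (-1.25). Of 6 secondary granule genes, Cybb, an oxidase subunit, was higher (1.43), and Camp and Ngp, which define gates, were lower.

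At the first steps more of the 24 listed partners tested fell than rose. From stem-like to GMP-like cells 3 rose and 6 fell, where 7.71% of all genes passed. On to granulocyte progenitors 1 rose and 9 fell, against 17.8% of all genes. From granulocyte progenitors to immature neutrophils 14 rose and 3 fell, at a step where 70.4% of all genes passed, led by Klf2 (5.02), Trib1 (4.61), Id2 (3.94) and Klf6 (3.83), with Myb (-1.95), Zeb2 (-1.19) and Etv6 (-0.52) lower. From immature to intermediate neutrophils 15 rose and 2 fell, where 54.4% of all genes passed. From intermediate to mature neutrophils, where Cebpb rose and Cebpe fell, 12 rose and 4 fell, against 25.0% of all genes. The risers there included the early-response genes Egr1 (5.08), Junb (3.53) and Fos (3.04). From monocyte progenitors to cycling monocytes, where 55.4% of all genes passed, 16 rose and 1 fell. Among the 16 were Id2 (3.19), Egr1 (3.08) and Rara (2.59), and Myb fell by 2.49.

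Whether a level came from many or few cells was read from the share of cells with at least 1 UMI, after each cell had been thinned to 1000 UMIs and shallower cells had been left out (834 of the 1589 mature neutrophils). T cells, in which most of these factors should be missing, gave the background. Spi1 was found in 55.04% of mature neutrophils (mean of 4 libraries; 54.4% without thinning), in 10.1% of B cells, which use PU.1 (20.7%), and in 0.767% of T cells (0.996%). Cebpe was found in 34.3% of immature neutrophils (78.2% without thinning), 15.2% of granulocyte progenitors (81.7%) and 0.0883% of T cells (0.0865%). These shares rest on median depths of 3637 to 6196 UMIs per immature neutrophil and 2008 to 2429 per T cell before thinning. Cebpb reached 49.97% of mature neutrophils, 47.0% of cycling monocytes and 46.6% of classical monocytes, against 3.77% of T cells. Klf4 was found in 18.6% of cycling monocytes (68.0% without thinning), 14.5% of classical monocytes (38.4%) and 6.74% of monocyte progenitors (48.4%), against 0.404% of T cells (0.39%). In granulocyte progenitors it was found in 0 of 700 cells (10 of 701 without thinning). Gfi1 was found in 5.82% of granulocyte progenitors (61.9% without thinning) and 2.29% of immature neutrophils (12.7%). Its share in T cells, which also use Gfi1, was 1.69% (2.01%), and the 0.779% of monocyte progenitors lay below it. Cebpg in granulocyte progenitors (1.46%) and immature neutrophils (1.71%) also lay below its 2.30% in T cells. It was however counted in every reference lineage, at 19.5 CPM in T cells, 40.8 CPM in B cells and 27.0 CPM in erythroid cells. These CPM values pool the libraries and have no TMM scaling. T cells therefore give no background for Cebpg, and those shares cannot tell expression from background. Of the 80 pairs of member and gate, 41 had every library above every T cell library at 1000 UMIs, 39 at 500 UMIs and 49 at 2000 UMIs. The 80 include the pairs of Cebpg and Gfi1, which T cells also hold, so for these the comparison is not one with background. Cebpb was also counted in T cells, at 40.9 CPM against 6.39 CPM in B cells and 15.6 CPM in erythroid cells (pooled, without TMM scaling). Whether its share in T cells is background was not tested.

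**Figure D3:**
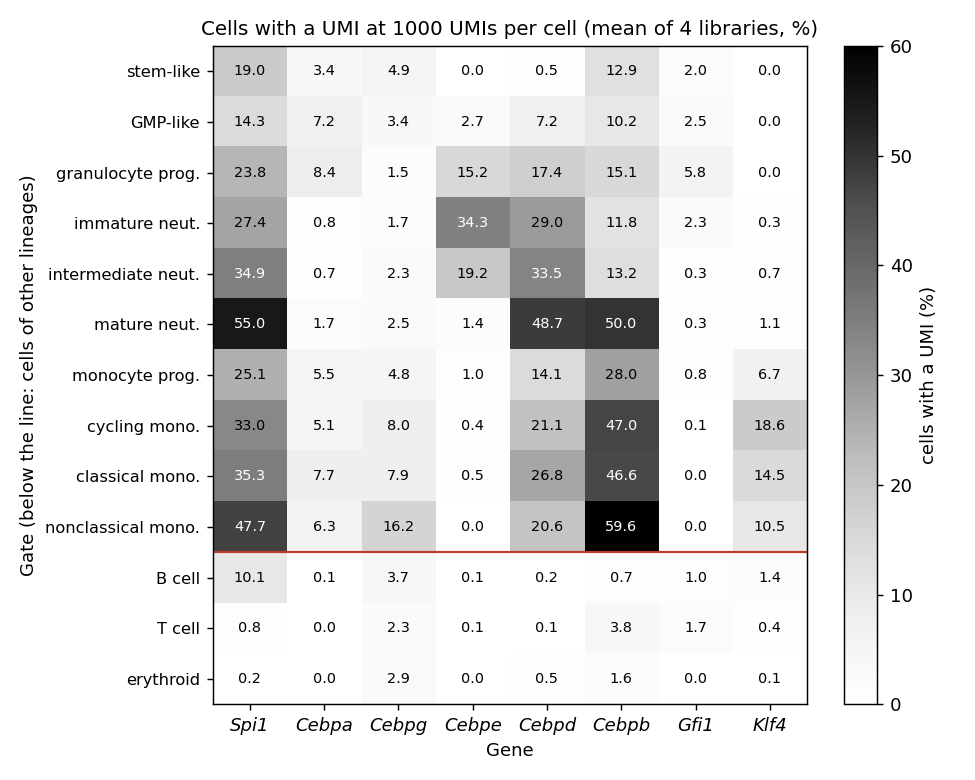
Share of cells with at least 1 UMI of each factor (columns) in each gate (rows), in percent, as the mean of the 4 libraries with every cell thinned to 1000 UMIs. B, T and erythroid cells stand under the red line. Spi1 reaches 55.04% in mature neutrophils and Klf4 18.6% in cycling monocytes, while Klf4 is at 0 in granulocyte progenitors at this depth (10 of 701 cells without thinning).

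Within a progenitor gate, factors of the other branch were found in some of the same cells. Of 701 granulocyte progenitors, 430 had a UMI of Gfi1, 583 of Cebpe and 10 of Klf4. Cebpe was found in 87.2% of the cells with Gfi1 and 76.8% of those without, but the cells with Gfi1 were also deeper (median 19066 against 16255 UMIs). Of 805 monocyte progenitors, 422 had a UMI of Klf4 and 93 of Gfi1, and 34 cells had both. Gfi1 was found in 8.06% of the monocyte progenitors with Klf4 and in 15.4% of those without, although the cells with Klf4 were the deeper ones (median 16246 against 13867 UMIs). Cebpe was found in 15.6% and 13.6% of the same cells. These counts pool the cells of the 4 mice and are given as a description.

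The effect of the TLR9-/- genotype was tested within each gate, with TMM scaling for that gate alone, so CPM values differ from those above. None of the 60 pairs of member and gate that passed the count filter was called by edgeR's quasi-likelihood test, against 0.279% of all genes over the 10 gates. By gate this background was 0% in stem-like and 0.0218% in GMP-like cells, 0.377% in granulocyte progenitors, 0.416%, 0.0903% and 0.209% in immature, intermediate and mature neutrophils, 0.205% in monocyte progenitors, and 0.407%, 0.303% and 1.60% in cycling, classical and nonclassical monocytes. The lowest adjusted p was 0.447, DESeq2 also called 0, and 11 pairs had an unadjusted p under 0.05 (18.3%, against 5.91% of all genes), 5 of them higher in TLR9-/- mice and 6 lower. The gates share the same 4 mice, so these pairs are not independent of each other. In 31 of the 60 pairs the libraries of the genotypes did not overlap (18 higher and 13 lower in TLR9-/-), against 35.6% of all genes in either direction and 17.8% in each. By gate that share of all genes ran from 27.6% in nonclassical monocytes (0 of 2 members) to 39.6% in monocyte progenitors. It was 36.6% in stem-like cells (0 of 2 members), 35.5% in GMP-like cells (2 of 6), 38.4% in granulocyte progenitors (5 of 7), 35.5% in immature neutrophils (5 of 8), 28.3% in intermediate neutrophils (2 of 6) and 30.6% in mature neutrophils (3 of 7). In monocyte progenitors 4 of 8 members did not overlap, in cycling monocytes 5 of 7 against 37.1% of all genes, and in classical monocytes 5 of 7 against 34.3%. With 2 mice per genotype an exact permutation test of a single value cannot go below p = 0.33.

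Spi1 and Cebpd had fitted differences above 0 in every gate tested, 10 of 10 and 8 of 8. The gates come from the same 4 mice, so a sign that repeats over gates is not repeated evidence. How many of all genes keep the same sign in every gate was not counted. In cycling monocytes Spi1 stood at 455 and 466 CPM in TLR9-/- and 365 and 291 CPM in WT mice, which did not overlap (log2 fold change 0.49, SE 0.18, unadjusted p = 0.0188 in edgeR, adjusted p = 0.722). Cebpd stood at 268 and 254 CPM against 205 and 179.5 CPM in the same gate (0.44, SE 0.17, adjusted p = 0.736) and at 359 and 374 CPM against 291 and 232 CPM in classical monocytes (0.48, SE 0.20, adjusted p = 0.927). Over all gates the fold changes ran from 0.09 to 0.55 for Spi1 and from 0.07 to 0.72 for Cebpd, on the log2 scale. Klf4 was above 0 in 5 of 5 gates tested, mature neutrophils included. In the scaling over all gates, the untested gates went both ways. The TLR9-/- mean was lower in GMP-like (2.09 against 2.50 CPM) and nonclassical cells (66.0 against 71.6 CPM) and higher in intermediate neutrophils (22.6 against 3.30 CPM). In mature neutrophils Klf4 stood at 45.1 and 32.0 CPM against 7.40 and 8.06 CPM (2.26, SE 0.62, adjusted p = 0.586). That value rests on 32 and 20 UMIs against 1 and 4, in a gate where 2 of 57 Klf4 UMIs came from cells without a monocyte marker UMI. The pair met the count filter only through the TLR9-/- libraries, where Klf4 was high, so it cannot support a difference. It is nevertheless counted in the 5 of 5 gates and in the 18 pairs higher without overlap. The 11 pairs with an unadjusted p under 0.05 in edgeR also include it. Without TMM scaling, the monocyte markers summed to 569.9 and 394 CPM in the TLR9-/- and 408 and 171 CPM in the WT mature neutrophils, and their part in the Klf4 value was not tested.

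Cebpa and Cebpg leaned the other way. Cebpa stood at 41.4 and 48.5 CPM in TLR9-/- and at 58.2 and 78.5 CPM in WT cycling monocytes (log2 fold change -0.61, SE 0.20, adjusted p = 0.693) and at 69.4 and 67.4 CPM against 82.9 and 110.1 CPM in classical monocytes (-0.49, SE 0.22, adjusted p = 0.927). Cebpg stood at 16.4 and 16.6 CPM against 38.6 and 22.1 CPM in granulocyte progenitors, without overlap (-0.82, SE 0.27, adjusted p = 0.447). It was also lower without overlap in cycling monocytes (-0.42, SE 0.18, adjusted p = 0.772) and in classical monocytes (-0.55, SE 0.21, adjusted p = 0.927). Gfi1 in granulocyte progenitors stood at 57.0 and 59.6 CPM against 82.4 and 80.9 CPM, with both TLR9-/- values below both WT values (-0.48, SE 0.17, adjusted p = 0.497). Cebpe stood at 9.51 and 12.6 CPM against 5.82 and 5.94 CPM in cycling monocytes (0.90, SE 0.35, adjusted p = 0.772), where its level was low. None of these differences passed the threshold in this fit, which has no replicate block.

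**Figure D4:**
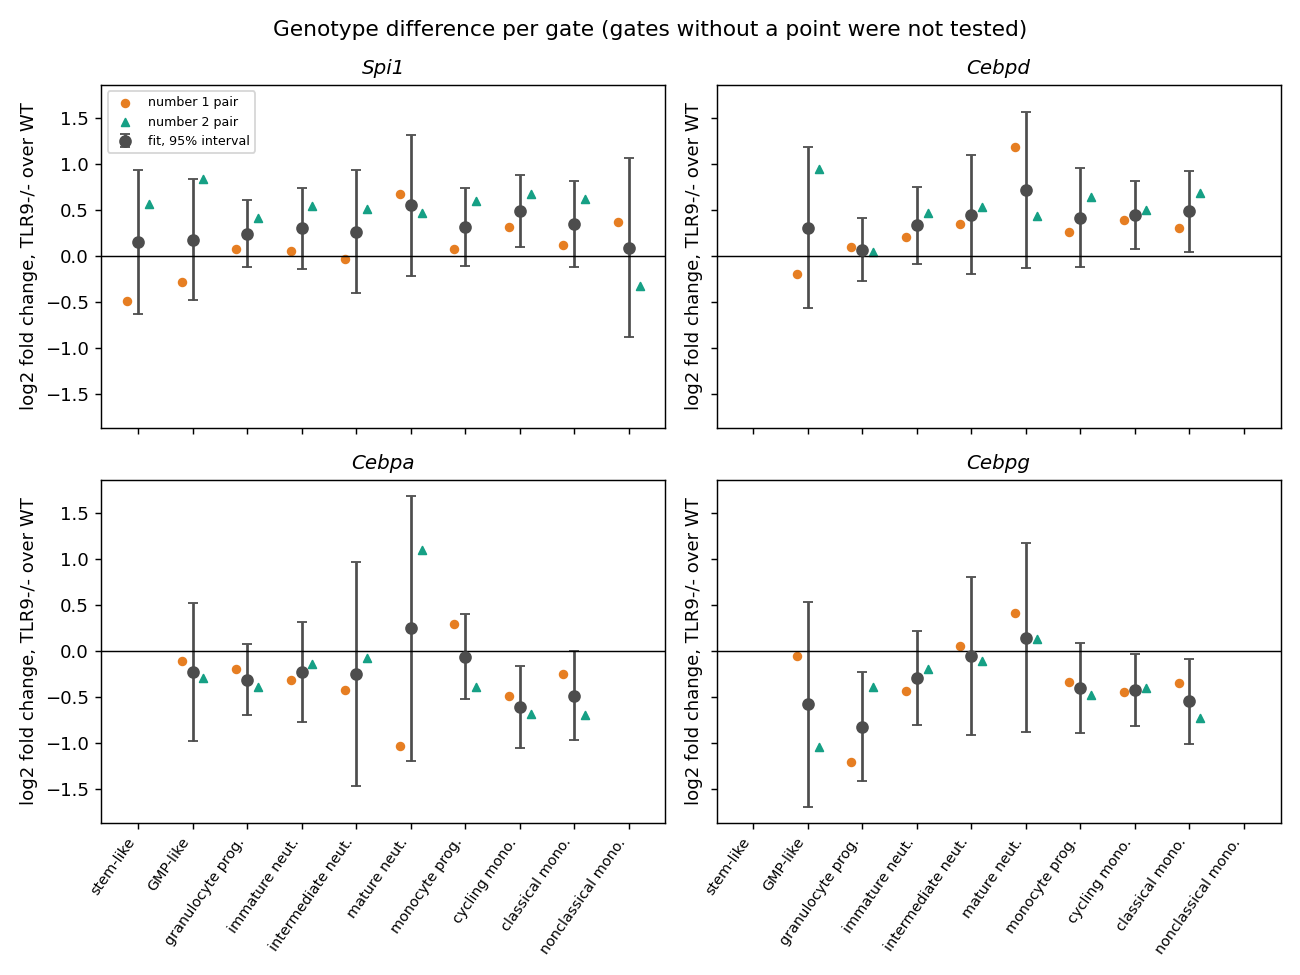
Log2 fold change of TLR9-/- against WT (y axis) for Spi1, Cebpd, Cebpa and Cebpg, 1 panel per gene, with the gates along the x axis. Bars are the 95% interval of the edgeR fit. Small points are the differences between libraries of the same number. Spi1 lies above 0 in 10 of 10 gates and Cebpd in 8 of 8, Cebpa and Cebpg lie above 0 in 1 of 8 each, and no adjusted p is under 0.447. The gates come from the same 4 mice and are not independent.

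No partner factor was called between genotypes in any gate. Among the receptor and myeloid genes, S100a9 was lower in TLR9-/- granulocyte progenitors (log2 fold change -1.14, adjusted p = 0.0141), and S100a8 (-2.51, adjusted p = 0.00856) and S100a9 (-1.94) were lower in nonclassical monocytes, where 438 genes were tested. Of the secondary granule genes, Lcn2 was lower in cycling monocytes (-0.98, adjusted p = 0.0487) and Ngp, whose low level is part of the gate, in granulocyte progenitors (-2.09, adjusted p = 0.00336).

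Cebpb differed widely between libraries of 1 genotype. In granulocyte progenitors it stood at 149.6 and 83.4 CPM in the TLR9-/- and 228 and 109 CPM in the WT libraries, and in classical monocytes at 995 and 382 CPM and 1077 and 510 CPM. In both gates the library numbered 1 was higher in either genotype. TLR9-/- 1 was above TLR9-/- 2 in 10 of 10 gates and WT 1 above WT 2 in 9 of 10, mature neutrophils being the exception in the levels over all gates (959 and 1178 CPM). The genotype fold change of Cebpb was below 0 in 10 of 10 gates and called in none, with values of -0.39 in GMP-like cells, -0.52 in granulocyte progenitors, -0.46 in immature neutrophils and -0.26 in intermediate neutrophils. Without WT 1 these were 0.45, 0.089, 0.19 and 0.087, and without TLR9-/- 2 those of GMP-like cells and intermediate neutrophils were 0.30 and 0.34. Without TLR9-/- 1 Cebpb was called in GMP-like cells (-1.74, adjusted p = 0.0301), granulocyte progenitors (-0.99, adjusted p = 0.0292) and intermediate neutrophils (-1.15, adjusted p = 0.0266), and without WT 2 in immature neutrophils (-0.95, adjusted p = 0.0288).

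The difference between the library numbers was therefore read from the fit with genotype and number as terms, a description chosen after the spread between libraries had been seen. Cebpb was higher in the libraries numbered 1 in 10 of 10 gates, by 0.95 to 2.05 on the log2 scale (median 1.15). It was called in 8 gates, where the share of all genes called was 0.529% in stem-like cells, 0.392% in GMP-like cells, 3.11% in granulocyte progenitors, 2.52% in immature neutrophils, 0.808% in monocyte progenitors, 1.59% in cycling, 1.98% in classical and 2.28% in nonclassical monocytes. It was not called in intermediate neutrophils (1.11, adjusted p = 0.0694, 1.16% of all genes called) or mature neutrophils (0.97, adjusted p = 0.0736, 2.46%). None of the other 7 members was called in any gate, and their differences ran in both directions for all but Klf4, which was higher in number 1 in 5 of 5 gates (0.21 to 0.59). Early-response genes moved with Cebpb. Fos was called in 9 of 9 gates (1.15 to 3.59), Jun in 5 of 8, Egr1 in 2 of 2 and Junb in 2 of 10. The summed level of these 4 genes in monocyte progenitors, without TMM scaling, was 591 and 127 CPM in the TLR9-/- and 227 and 132 CPM in the WT libraries. In cycling monocytes it was 1026 and 265 CPM and 475 and 224 CPM. The labels do not say what the numbers mark, and the part of handling or experiment in these differences was not tested.

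**Figure D5:**
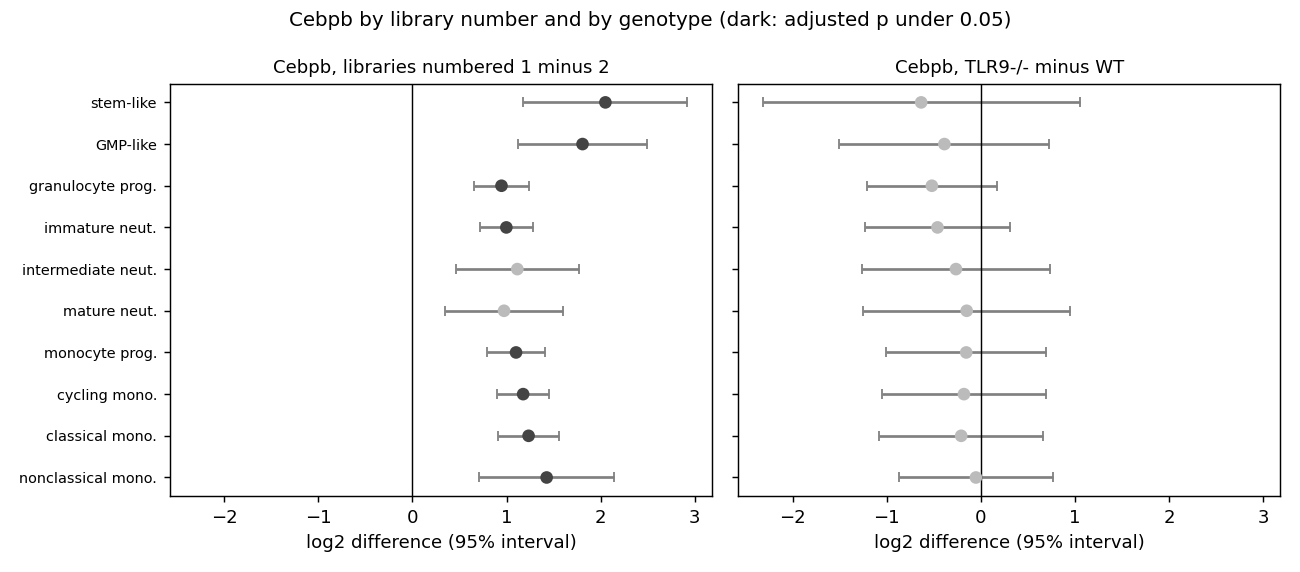
Cebpb in each gate (rows) as log2 difference with its 95% interval: libraries numbered 1 minus those numbered 2 on the left, TLR9-/- minus WT on the right. On the left the 10 values lie between 0.95 and 2.05, and on the right all 10 lie below 0 with intervals that include 0.

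The last comparison asked whether the genotype effect differed between the 2 progenitor branches. Of 9614 genes 7 were called (0.0728%), none of them a member, and 2 members had an unadjusted p under 0.05 against 505 genes in all. For Cebpb the effect in monocyte progenitors minus that in granulocyte progenitors was 0.34 (SE 0.14, edgeR adjusted p = 0.825), and for Cebpd 0.36 (SE 0.16, adjusted p = 0.878). The Cebpd value rested on single libraries, as it was -0.0062 without WT 2 and 0.78 without WT 1, where it was called (adjusted p = 0.0217).

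The genes whose levels ran most like each member over the 40 sums of gate and library were named by Pearson's r of log2(CPM + 10) among 4924 genes. The sums of 1 mouse share a library and gates share marker genes, so r is a description. Cebpe ran with Gca, a granule calcium-binding protein gene (r = 0.972), Cldn15 (0.928) and Ncam1 (0.920), and Cebpd with Rhog (0.966), Gsr (0.957) and the haptoglobin gene Hp (0.954). Klf4 ran with Pld4 (0.952), Ms4a6c (0.941) and Ccr2 (0.938), of which the last 2 define gates. Spi1 ran with Gnb2 (0.945), Ostf1 (0.942) and Cdc42 (0.940), and Gfi1 with Prss57, a serine protease gene (0.931), Rgcc and B230118H07Rik (both 0.894). For Cebpg the closest were Atp2b1 (0.889), Ms4a4c (0.868) and Cd68 (0.856), and for Cebpb Sat1 (0.860), the ferritin gene Ftl1 (0.858) and Nptn (0.847). Cebpa had the lowest values, with Rrbp1 (0.815), Phka2 (0.804) and Colgalt1 (0.724).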

How the data were processed

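Bone marrow mononuclear cells of 2 TLR9-/- and 2 WT mice were profiled by 10x 5′ single-cell RNA sequencing. The authors aligned the reads to mm10 and deposited raw UMI counts per gene and barcode for each library. Cell Ranger, STAR and Seurat 2.3.4 are named in the submitters' processing notes. The 8 members, the marker genes and the gene lists were chosen with earlier results of these data known, and the limits of the gates were set on the marker genes after their distributions had been seen, without the values of the members.

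Cells with 200 to 10000 genes and at most 10% mitochondrial UMIs were kept (the methods print the limit as a fraction-like percentage, read here as a fraction). Doublets were kept, and Scrublet in scanpy 1.11.5 marked 930, 636, 894 and 633 cells in TLR9-/- 1, TLR9-/- 2, WT 1 and WT 2 at an expected rate of 0.8% per 1000 cells, whose removal was an alternative. Kept cells held 50204578, 63958243, 31210188 and 41384657 UMIs in the same order. Counts were summed per gate and library and tested with edgeR 4.0.16 in R 4.3.3 (filterByExpr, TMM, glmQLFit, glmQLFTest, Benjamini-Hochberg adjustment over all genes, threshold 0.05). Contrasts between gates had the library as a block, and genotype was tested within a gate without a block. Gates of 1 mouse are compared cells, not traced ones. Members at 0 are given with the level that 3 counts would have, which covers counting error only. On simulated counts the genotype test recovered 51% of genes changed by 1 on the log2 scale in granulocyte progenitors, 41% in monocyte progenitors and 30% in classical monocytes, and 96%, 98% and 97% of those changed by 2. The test between monocyte and granulocyte progenitors recovered 31% and 98%.

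All 8 members were measured in every gate, and the text gives a part of these levels. Other genes come from fixed lists of partner factors, receptor and myeloid genes, and primary and secondary granule genes, with up to 4 named in each direction by size, and from the 3 genes most correlated with each member. The values of 1 listed partner factor are not reported here. Alternatives were DESeq2 1.42.0 and its size factors, no filter on low counts, doubled marker minimums, removal of marked doublets, a replicate block for genotype, no library block between gates, other thinning depths and each library left out. Library totals in place of TMM and neutrophils without a monocyte marker UMI were added after seeing the data. Gene positions are from GENCODE vM21 and promoters from RefSeq, both on GRCm38, and 5 of the 8 members had a promoter entry. Python 3.11.15, numpy 2.4.6, pandas 2.3.3 and scipy 1.17.1 were used.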

Additional observations from a re-analysis of the deposited data

How the results depend on the processing

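With 2 mice per genotype, differences of 1 on the log2 scale are often missed, and gates of few cells (stem-like, GMP-like, nonclassical) limit members of low level most. The number of members called between gates was 47, and 35 to 50 over the alternatives. Between the genotypes it was 0, 2 with a replicate block (Cebpb and Cebpg in granulocyte progenitors, -0.50 and -0.80) and 0 to 3 with 1 library left out. The replicate numbers share only a number in the labels. The differences between numbers correlated between the genotypes with r of 0.0994 to 0.393 over genes, and the block raised the genes called over 10 gates from 175 to 714. With 1 library left out the genotype fold change of Cebpb ran from -1.74 to 0.45 in GMP-like cells, -0.99 to 0.089 in granulocyte progenitors, -0.95 to 0.19 in immature neutrophils and -1.15 to 0.34 in intermediate neutrophils. The count of genes whose genotype effect differed between the branches was 7, 12 with DESeq2's size factors, 14 with library totals, 15 without the filter, 21 with doubled minimums and 2 to 27 with 1 library left out, and the Cebpd value ran from -0.0062 to 0.78. Between monocyte and granulocyte progenitors Spi1 was -0.035 with DESeq2's size factors, -0.036 with doubled minimums and -0.010 to 0.065 with 1 library left out, and Cebpd -0.29 to 0.011. Klf4 from granulocyte progenitors to immature neutrophils was -1.01 in neutrophils without a monocyte marker UMI. Library totals in place of TMM moved the members' differences by a median of -0.65 at immature neutrophils, 0.39 at mature neutrophils and 0.89 at nonclassical monocytes. The share of classical monocytes was 1.04 with the replicate block, 1.09 with doubled minimums, 1.04 without marked doublets and 0.82 to 1.26 with 1 library left out, when GMP-like cells ran from 1.18 to 1.37, cycling monocytes from 0.97 to 1.05 and the gates called from 2 to 5. The causes were not tested, except that the left-out libraries reduce the sample number. Of the tests on single members and gates whose values are printed here, a selection, 665 alternative values kept their direction and side of the threshold, 57 lost a call, 9 gained one and 12 reversed. Over all tests of the members, printed or not, the alternative values reversed 30 times for differences between gates, 48 times for genotype fold changes and 9 times for the difference of the genotype effect between branches. For 23 further values no comparison could be made, as the member was tested under only one of the settings or had no p-value.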
